A study of Mus musculus with 6 samples.

Results

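E2A binding sites in later introns are the wild-type (wt) consensus peaks that lie in any intron of a gene except its first. A peak of wt replicate 3 counted as a consensus peak if it overlapped a peak of wt replicate 1 or wt replicate 2 by at least 1 bp, and as a later-intron site if the authors' annotation placed it in an intron other than intron 1. The rule found 2757 sites among 12298 consensus peaks, which is 22.4% of them, out of 24194 peaks in wt replicate 3. Distal intergenic sequence held 4384 of the consensus peaks, promoters 2745 and first introns 1562. Of the 2757 later-intron sites, 2508 had a peak in wt replicate 2, 1246 had a peak in wt replicate 1, and 997 were in all 3 wt lists.

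E2A was mapped with ChIP-seq, the sequencing of immunoprecipitated chromatin, in cultured neural stem cells from C57BL/6J mouse embryos at E12.5. The groups were cells lacking the E12 isoform (E12KO, 1 library), cells lacking the E47 isoform (E47KO, 1 library) and wt cells (3 libraries), beside 1 input library that was not analysed here. No group received a treatment, and all were kept proliferating in medium with FGF-2 and EGF. The sources used here do not say how the knockouts were made, how many embryos or cultures each library came from, or whether the wt replicates were separate cultures. Because each knockout is 1 library, no test between genotypes was made, and the intervals below cover counting error only. Peak lists carry no RNA level, so neither the neural stem cell label nor the loss of E12 or E47 was checked here. The length of the lists differed, with 25229 peaks in E12KO and 22176 in E47KO, against 6814, 12772 and 24194 in wt replicates 1 to 3, and read depth is unknown.

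E2A is the basic helix-loop-helix (bHLH) product of Tcf3, spliced as E12 or E47, and both isoforms bind E-box DNA as dimers with themselves or with tissue-specific bHLH partners. In neural progenitors, such partners include the proneural factors, while Id proteins hold E proteins off DNA. Introns beyond the first lie away from the main promoter and can hold enhancers, which may act on the gene they sit in, on a neighbour or on a distant gene, so a position inside a gene does not name the target.

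Most later-intron sites had a peak in both knockouts. E12KO had a peak at 2657 of the 2757 sites, or 96.4% (95% Wilson interval 95.6% to 97.0%), and E47KO at 2594, or 94.1% (93.1% to 94.9%). Both knockouts had a peak at 2550 sites, or 92.5%. The 100 sites missing in E12KO stand beside a background of 3.27% of all consensus peaks, the 163 missing in E47KO beside 6.4%, and the 56 missing in both beside 1.79%. With sites defined without wt replicate 1, 2 or 3, the number missing in both was 26, 32 or 5. Of the missing sites, 44 were missing in E12KO only and 107 in E47KO only. The share missing among later-intron sites was thus close to that among consensus peaks of every kind.

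Later-intron sites had knockout peaks about as often as consensus peaks in most other parts of the genome. The share in E12KO was 96.4% for later introns and 96.9% for first introns, a difference of -0.55 percentage points (95% interval -1.62 to 0.61). In E47KO it was 94.1% for later introns and 94.3% for first introns, a difference of -0.21 points (-1.62 to 1.29). Against distal intergenic peaks the difference was -0.62 points in E12KO (-1.51 to 0.22) and 0.29 points in E47KO (-0.87 to 1.41). These 4 intervals include 0. In E47KO the share was lower for 3' UTR peaks, at 89.7% of 194 (84.6% to 93.2%), for which no interval of the difference was computed. It was also lower for promoters, where 92.4% of peaks were found against 94.1% of later-intron sites, a difference of 1.70 points (0.37 to 3.04). For presence in both knockouts the difference from promoters was 2.11 points (0.63 to 3.59), whereas in E12KO it was -0.28 points (-1.25 to 0.70). Promoter peaks also lay in all 3 wt lists less often, at 25.9% against 36.2% for later introns, and the part of list membership in this difference was not tested.

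**Figure D1:**
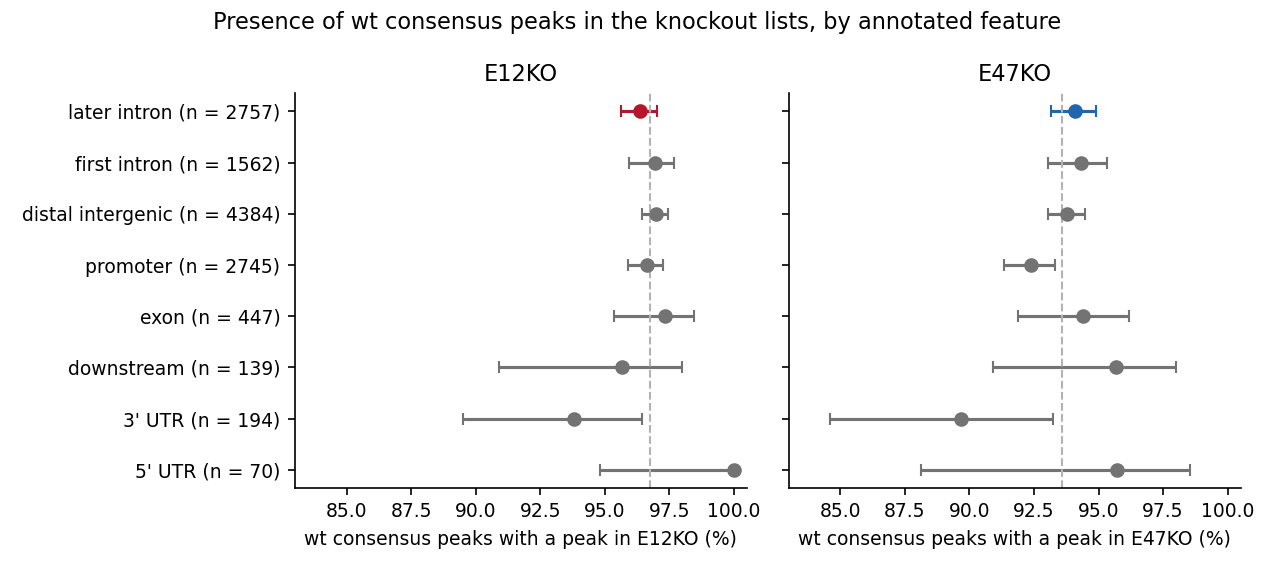
Share of wt consensus peaks (%) that had a peak in E12KO (left) and in E47KO (right), by annotated feature, with later introns on top. Points are shares, bars are 95% Wilson intervals, and dashed lines mark the share over all consensus peaks; later introns lie at 96.4% and 94.1%, beside 96.9% and 94.3% for first introns.

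How often a wt list itself holds such sites gives a scale for the knockouts. Sites shared by wt replicates 2 and 1, placed in a later intron by the replicate 2 table, numbered 1068. Of these, 99.3% were in E12KO, 98.3% in E47KO and 99.4% in the wt replicate 3 list, which took no part in their choice. E12KO missed 8 of these sites, E47KO missed 18 and wt replicate 3 missed 6 (intervals of the share found 98.5% to 99.6%, 97.4% to 98.9% and 98.8% to 99.7%). The same sites were looked up in each list, so these separate intervals do not compare the lists. Among the 1246 sites shared by wt replicates 3 and 1, 95.6% were in E12KO, 93.5% in E47KO and 80.0% in wt replicate 2. Among the 2508 shared by wt replicates 3 and 2, 98.0% were in E12KO, 96.3% in E47KO and 39.8% in wt replicate 1. In these last 2 sets both knockouts held more of the sites than the wt list left out. The wt lists left out there are the shorter ones, and list length was not matched.

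**Figure D2:**
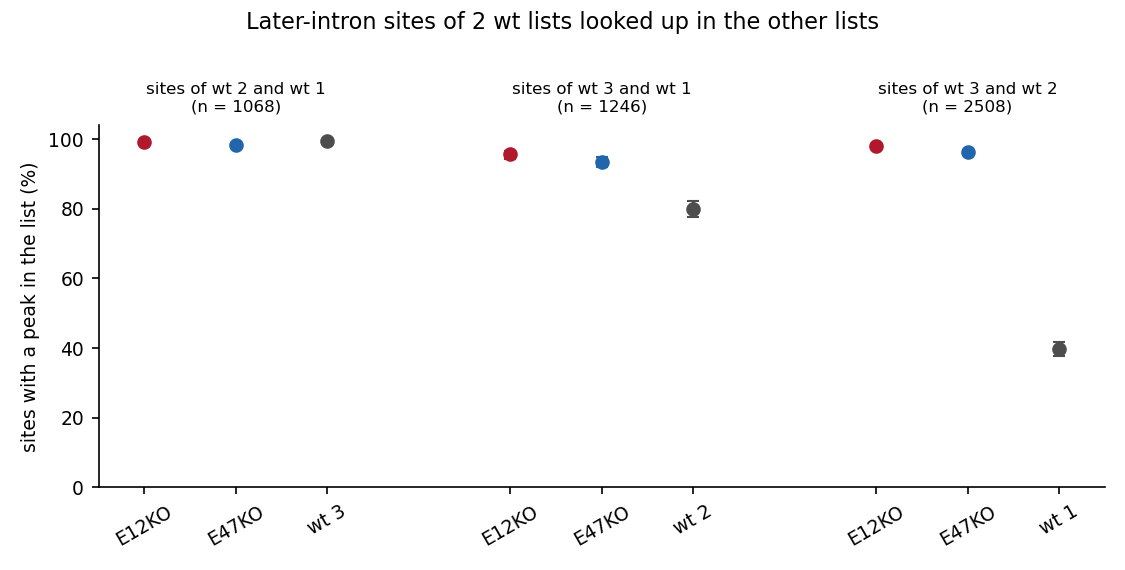
Share (%) of later-intron sites shared by 2 wt lists that had a peak in E12KO, in E47KO and in the wt list left out, with 95% Wilson intervals. E12KO and E47KO lie between 93.5% and 99.3% in every set, while the wt list left out lies at 99.4%, 80.0% and 39.8%.

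Sites found in every wt list were seldom missing. Of the 997 sites in all 3 wt lists, 982 were in both knockouts. E12KO alone lacked 3, E47KO alone lacked 10 and both lacked 2. The background for the last group was 0.166%, or 7 of 4229 consensus peaks in all 3 wt lists. At the other end stood the 249 sites that wt replicates 1 and 3 shared without replicate 2. E12KO held 79.9% of them, E47KO 72.3% and both knockouts 64.3%, and they supplied 30 of the 56 sites missing in both. The 1511 sites shared by wt replicates 2 and 3 without replicate 1 lay between, at 97.0% in E12KO and 94.6% in E47KO.

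Peak strength moved with presence in the knockouts. The authors gave a fold enrichment and a q-value only for wt replicate 1, so strength could be read for the 1246 sites with a peak there. Over 4 groups of near equal size and rising −log10 q, the share in E12KO was 92.3%, 94.5%, 96.5% and 99.0%, and the share in E47KO was 88.5%, 93.2%, 94.6% and 97.7%. The median fold enrichment was 6.29 for the 23 scored sites that E12KO alone lacked, 6.28 for the 49 that E47KO alone lacked and 7.35 for the 32 that both lacked, against 8.25 for the 1142 in both knockouts. Missing sites were also narrow: the median width in wt replicate 3 was 326.5 bp for the 56 sites missing in both and 654 bp for the 2550 in both. Absence from a list is a peak call below the authors' threshold and was not tested as loss of binding.

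**Figure D3:**
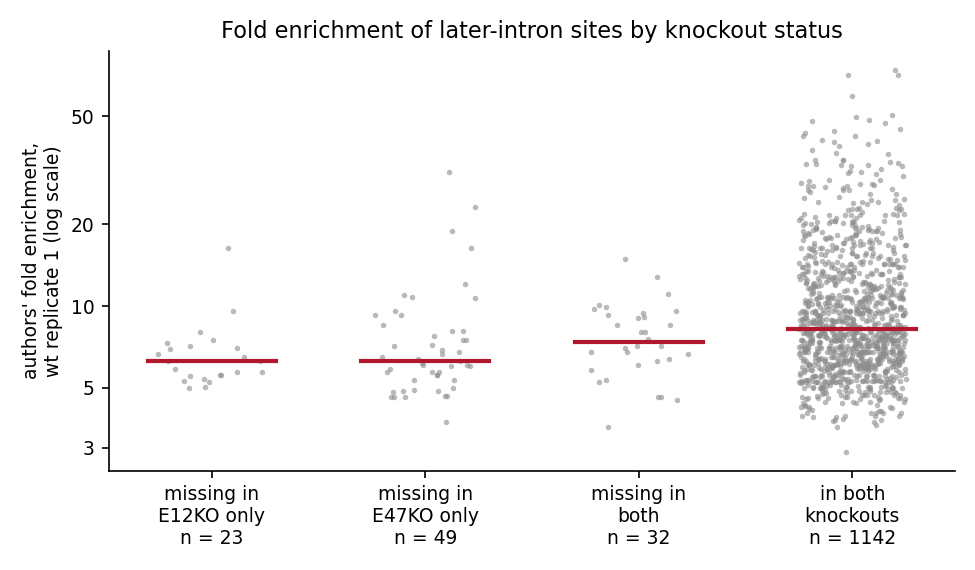
The authors' fold enrichment in wt replicate 1 (log scale) of each later-intron site with a peak there, by knockout status; red lines are medians and the sideways spread is for display only. Medians are 6.29 where E12KO alone lacks a peak, 6.28 where E47KO alone does and 7.35 where both do, against 8.25 for sites in both knockouts, and the ranges overlap.

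The strongest later-intron site of the wt replicate 1 list lay in Dgkg, which encodes a diacylglycerol kinase. It spans chr16:22508611-22510245 (mm9, as for all positions here) in intron 21 of 24 and was enriched 74.3-fold. Its peak was 1605 bp wide in E12KO and 1337 bp in E47KO, against 879, 1428 and 1635 bp in wt replicates 1 to 3. The knockout widths lie inside the wt range. Widths differ between the lists as a whole: over all later-intron sites that a list held, the median was 721 bp in E12KO and 636.5 bp in E47KO, against 446.5, 434 and 632 bp in wt replicates 1 to 3. The nearest start site is that of Etv5, an ETS transcription factor induced by FGF signalling, 69.0 kb away, while the start of the Dgkg transcript is 148 kb away.

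Atoh8, itself an atonal-type bHLH factor gene, held the next site at chr6:72166184-72167485 in intron 2 of 2, enriched 71.3-fold. The Atoh8 peak was 1879 bp wide in E12KO and 1302 bp in E47KO, against 1231, 1087 and 1302 bp in the wt replicates, so only the E12KO width lies outside the wt range. Also among the 10 strongest sites in all 5 lists were sites in Tmem260 (59.4-fold), in the fatty acid transporter gene Slc27a1 (44.9-fold), in the autophagy regulator gene Ambra1 (44.4-fold), in the adaptor gene Anks1 (40.2-fold) and in 3 transcripts that the table gives without a gene. The nearest start site to one of these 3 belongs to Zmiz1, a transcriptional coactivator, at 141 kb from a 42.5-fold site, and to another Ass1, the argininosuccinate synthase of the urea cycle, at 20.2 kb from a 39.4-fold site.

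Few strong sites were absent from a knockout. Over all scored sites, enrichment reached 31.3-fold where E47KO alone lacked a peak, 16.4-fold where E12KO alone did and 15.0-fold where both did. The sites named here are only those in all 3 wt lists, so they are not the upper limit. In E47KO the strongest missing site of those in all 3 wt lists was in Dscaml1, a neuronal adhesion molecule gene, at chr9:45295417-45295879 in intron 5 of 7, with 23.1-fold enrichment. Its peak was 582 bp wide in E12KO and 528, 213 and 463 bp in wt replicates 1 to 3. The next was in Arhgap35, the gene of a GTPase-activating protein, at chr7:17084985-17085883, with 18.9-fold enrichment. Here the peak was 587 bp wide in E12KO and 758, 459 and 899 bp in the wt replicates, and the nearest start is that of Npas1, a bHLH-PAS factor, 22.9 kb away. Chst11, a chondroitin sulfotransferase gene (10.8-fold), and Rcc2, a mitosis gene (9.26-fold), followed.

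E12KO alone lacked 3 sites of those in all 3 wt lists, and the strongest, with 8.05-fold enrichment, lay in a transcript that the table gives without a gene. Rab23, a GTPase that restrains Sonic hedgehog signalling, held one at chr1:33786568-33786989 with 7.34-fold enrichment, and Trit1, a tRNA-modifying enzyme gene, held one with 5.39-fold enrichment. The Rab23 peak was 351 bp wide in E47KO and 446, 197 and 422 bp in the wt replicates. Missing in both knockouts were a site in Phactr3, a regulator of protein phosphatase 1 and actin, at chr2:178042007-178042244 (9.15-fold) and a site in Med13l, a Mediator subunit gene, at chr5:119126558-119126928 (7.58-fold). The Phactr3 peak was 408, 354 and 238 bp wide in wt replicates 1 to 3, and the Med13l peak was 460, 313 and 371 bp wide. In wt replicate 3 both are narrow beside its median of 778 bp for sites in all 3 wt lists. In wt replicates 1 and 2 the medians over all later-intron sites held were 446.5 and 434 bp, and the replicate 1 widths are near theirs.

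The sites lay away from promoters, which their definition fixes in part, as it leaves out promoter and first-intron peaks. The median intron number was 4 (quartiles 2 and 8, highest 60) in transcripts with a median of 11 introns. Intron 2 held 794 sites, intron 3 held 480 and the last intron 384. The median distance to the nearest annotated start site was 37985 bp (quartiles 16296 and 85876 bp). It was 16.8 kb for first-intron and 53.0 kb for distal intergenic consensus peaks. Of the later-intron sites, 1126, or 40.8%, were more than 50 kb away. Where the table gives the start of the host transcript itself, the median distance to it was 80.4 kb. The median of the sites' own positions was 59.8% of the way along the transcript. Presence in the knockouts differed little by intron number: over intron 2, intron 3, introns 4 to 5, introns 6 to 10 and introns 11 and later, 95.5% to 97.5% of sites were in E12KO and 93.8% to 94.7% in E47KO.

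The 5 farthest sites lay 728 to 864 kb from the nearest start. In Cadm2, a synaptic adhesion molecule gene, 2 sites in intron 7 of 9 lay 864 kb and 851 kb from the start, and both were in both knockouts. The nearer of them was 1135 bp wide in E12KO and 866 bp in E47KO, against 582 and 772 bp in wt replicates 2 and 3, with no peak in wt replicate 1. A site in intron 2 of Pcdh9, a protocadherin gene, lay 820 kb from its start and had 6.10-fold enrichment. Its peak was 1512 bp wide in E12KO and 1318 bp in E47KO, against 809, 1133 and 1276 bp in the wt replicates. Both knockout widths exceed the wt range, as do the knockout medians over all later-intron sites. The next, 805 kb from Trib2, lay in a transcript without a gene and had a peak in E47KO and not in E12KO. A site in Grm7, a glutamate receptor gene, lay 728 kb from the nearest start, which is not that of Grm7.

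The gene that hosts a site was often not the gene with the nearest start. A host gene could be read for 2662 sites, the other 95 being annotated to a transcript without a gene. The host was also the nearest gene at 1989 of these 2662 sites, or 74.7% (73.0% to 76.3%), and another gene was nearest at 673, or 25.3%. For first introns the host was nearest at 1389 of 1478 sites, or 94.0% (92.6% to 95.1%). The later-intron share was 19.3 percentage points lower (interval of the difference -21.3 to -17.2). Unbound intron positions were not compared. By position, the share with the host nearest was 88.7% in intron 2, 83.7% in intron 3, 70.3% in introns 4 to 5, 66.0% in introns 6 to 10 and 57.7% in introns 11 and later.

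Over the 451 sites with another gene nearest and a known host start, the median distance was 51.8 kb to the nearest start and 128 kb to the host's, an order that the choice of these sites fixes. The 673 sites named 481 other genes, of which they lay downstream at 331 sites and upstream at 342, and 50.6% of 585 such pairs with known strands were on opposite strands. Even when the host was nearest, 500 of the 1989 sites (25.1%) lay upstream of the nearest start, that is, before an inner start site of the same gene. Presence in the knockouts was alike for both kinds of site: with another gene nearest, 96.7% were in E12KO and 94.4% in E47KO, and with the host nearest, 96.2% and 93.8%.

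**Figure D4:**
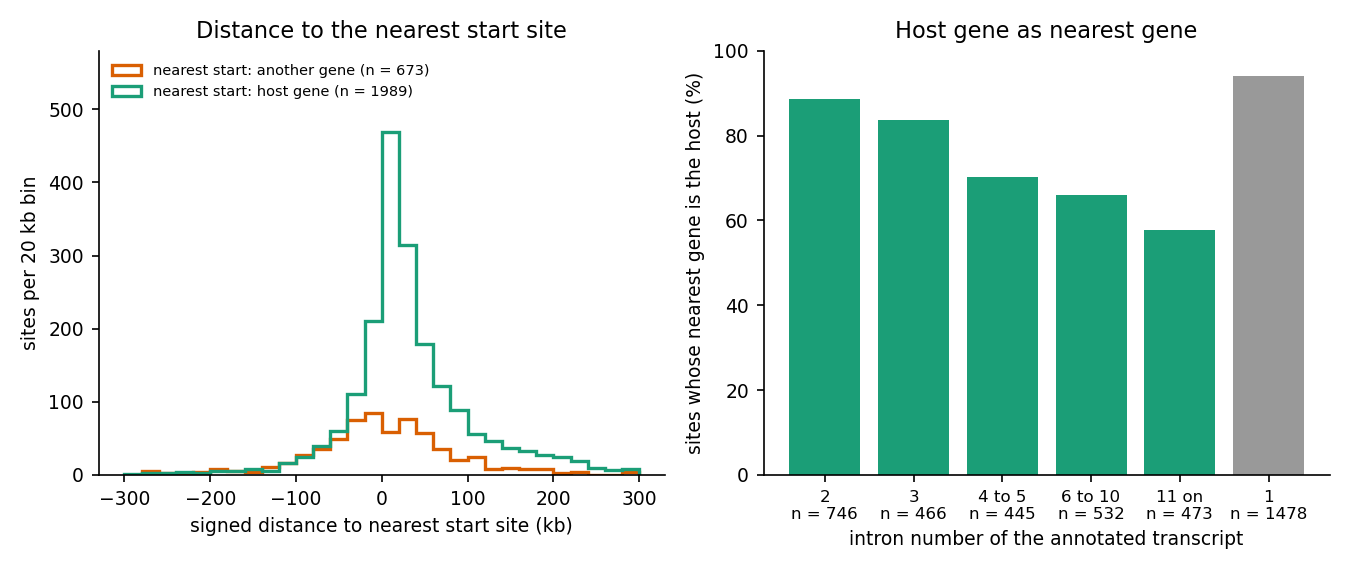
Left, later-intron sites per 20 kb bin of signed distance (kb) to the nearest start site, negative when upstream of it, within 300 kb, for sites where another gene is nearest (n = 673) and where the host is nearest (n = 1989). Right, share of sites (%) whose nearest gene is the host by intron number, which runs from 88.7% in intron 2 down to 57.7% in introns 11 and later, beside 94.0% in first introns (grey).

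Several of the strongest sites were of this kind. Beside Dgkg with Etv5 nearest, the Ambra1 site at chr2:91744640-91745466 in intron 16 of 18 had Chrm4, a muscarinic acetylcholine receptor gene, nearest at 16.9 kb. Its peak was 654 bp wide in E12KO and 750 bp in E47KO, against 628, 673 and 827 bp in the wt replicates, which overlap. Kcnh7, a potassium channel gene, held a 34.7-fold site at chr2:62645049-62646102 in intron 6 of 15, which was 143 kb from the start of the calcium-binding protein gene Gca and 377 kb from the Kcnh7 start. Adarb2, of the RNA-editing enzyme family, held a 38.8-fold site that was 286 kb from Wdr37 and 382 kb from its own start.

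Further sites of this kind lay in Fhad1 with the calcium-binding protein gene Efhd2 nearest (36.3-fold), in the centriole gene Poc1b with the glycosyltransferase gene Galnt4 nearest (33.5-fold) and in Mnat1, a cyclin-dependent kinase assembly factor gene, with the tRNA methyltransferase gene Trmt5 nearest (33.4-fold). Fhit hosted a 31.3-fold site 138 kb from the pseudogene Mnd1-ps, Macrod2 a 29.1-fold site 314 kb from the kinesin gene Kif16b, and Dennd1a a 27.5-fold site 53.6 kb from Crb2, a Crumbs family polarity gene. All 10 of these sites, Dgkg included, were in both knockouts and all 3 wt lists. At each of them, assignment by nearest start names the other gene and not the host.

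MicroRNA genes made up a group of nearest genes that are short and often lie inside or beside long hosts. A miRNA gene was nearest to 66 sites, 60 of them in a different host, and 38 miRNA genes were named. E12KO held 65 of the 66 sites and E47KO 64. Of the miRNA genes named, Mir181a-1 and Mir181a-2 give the same mature miR-181a-5p and so share its seed. The mature sequences below (RefSeq, GRCm38.p6, 5′ to 3′, seed bases 2 to 8 in capitals) belong to other miRNAs, well known in neural tissue. They show that no pair among these chosen sequences shares a seed.
mmu-let-7i-5p: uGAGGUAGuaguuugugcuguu
mmu-miR-9-5p: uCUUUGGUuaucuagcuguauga
mmu-miR-125b-5p: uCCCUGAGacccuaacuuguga
mmu-miR-218-5p: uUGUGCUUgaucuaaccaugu
mmu-miR-128-3p: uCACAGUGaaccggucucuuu
mmu-miR-153-3p: uUGCAUAGucacaaaagugauc

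Mirlet7i, the gene of a let-7 miRNA, a family whose level rises as progenitors differentiate, had the most sites. It was nearest to 6 sites in introns of Ppm1h, a protein phosphatase gene, at 54.1 to 140 kb, all on chromosome 10. E12KO held 6 of them and E47KO held 5. The strongest, at chr10:122320517-122322052 with 18.8-fold enrichment, was 1149 bp wide in E12KO and 1273 bp in E47KO, against 998, 831 and 1536 bp in the wt replicates. The site missing in E47KO, at chr10:122368189-122368679 with 6.90-fold enrichment, was also absent from wt replicate 2.

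Mir9-3, a locus of the brain-enriched miR-9, was both host and nearest gene of a 19.1-fold site at chr7:86670509-86671668, 20.4 kb downstream of its start. That peak was 1091 bp wide in E12KO and 1234 bp in E47KO, against 870, 898 and 1160 bp in the wt replicates. Mir125b-1 was nearest to 3 sites at 18.8 to 116 kb, and Mir218-2 to 2 sites in introns of the axon guidance ligand gene Slit3 at 29.2 and 78.8 kb. Mir128-2 was 15.8 kb from a site in Arpp21, and Mir153 was 6.48 kb from a site in Ptprn2. These last 7 sites were in both knockouts.

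The 2662 sites with a host gene fell in 1530 genes, and a minority of genes held many of them. There were 977 hosts with a single site (63.9%), 266 with at least 3 and 72 with at least 5, and the 266 held 41.7% of the sites. Of all later-intron sites, 34.4% shared their intron with another site, with a median gap of 9537 bp between neighbours. Whether this exceeds what intron length alone would give was not tested. The 10 hosts with most sites held 106, of which 103 were in E12KO, 100 in E47KO and 99 in both.

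Nav2, a microtubule-associated neuron navigator gene, had the most with 16 sites on chromosome 7, between 56250175 and 56779682. Intron 2 of 38 held 12 of them, the most of any intron. E12KO had 15 of the Nav2 sites and E47KO 14, against 7, 14 and 16 in wt replicates 1 to 3. The strongest, at chr7:56326173-56327238 with 24.1-fold enrichment, was in all 5 lists. Msi2, which encodes the Musashi RNA-binding protein of neural stem cells, had 12 sites, of which E12KO and E47KO each held 11 and wt replicates 1 and 2 held 8 and 11. The Msi2 site absent from both knockouts, at chr11:88563325-88564086, had 8.54-fold enrichment in wt replicate 1.

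Rad51b, a homologous recombination gene, held 11 sites in introns 7 and 8 of 10, all in both knockouts, up to 22.3-fold. Its 3 last sites along the gene had Zfp36l1, an mRNA decay factor gene, nearest. Septin9, a cytoskeletal GTPase gene, held 10 sites up to 13.3-fold, 8 of them in intron 3 of 11, and all were in both knockouts. Ptprn2, a receptor-type phosphatase gene of secretory vesicles, held 10 sites of which 8 had Gm10421 nearest and 1 had Mir153. E12KO and E47KO each held 9 of the Ptprn2 sites, and different sites were missing.

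Dab1, the adaptor of reelin signalling in neuronal migration, held 10 sites across 4 introns on chromosome 4, all in both knockouts but only 1 in wt replicate 1. Npas3, a bHLH-PAS factor gene, held 10 sites up to 6.53-fold, of which 4 had the prolyl hydroxylase gene Egln3 nearest, and all were in both knockouts. Cdh4, the gene of R-cadherin, held 9 sites up to 17.9-fold, of which E12KO had 9 and E47KO 8, and 2 had Taf4 nearest. Dpf3, a subunit gene of the BAF chromatin remodeller, held 8 sites up to 20.6-fold, of which E12KO had 8 and E47KO 7. Gm1604b was listed with 10 sites, but its transcripts are annotated at separate places on chromosome 17 and on both strands, so the count for this gene is uncertain.

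**Figure D5:**
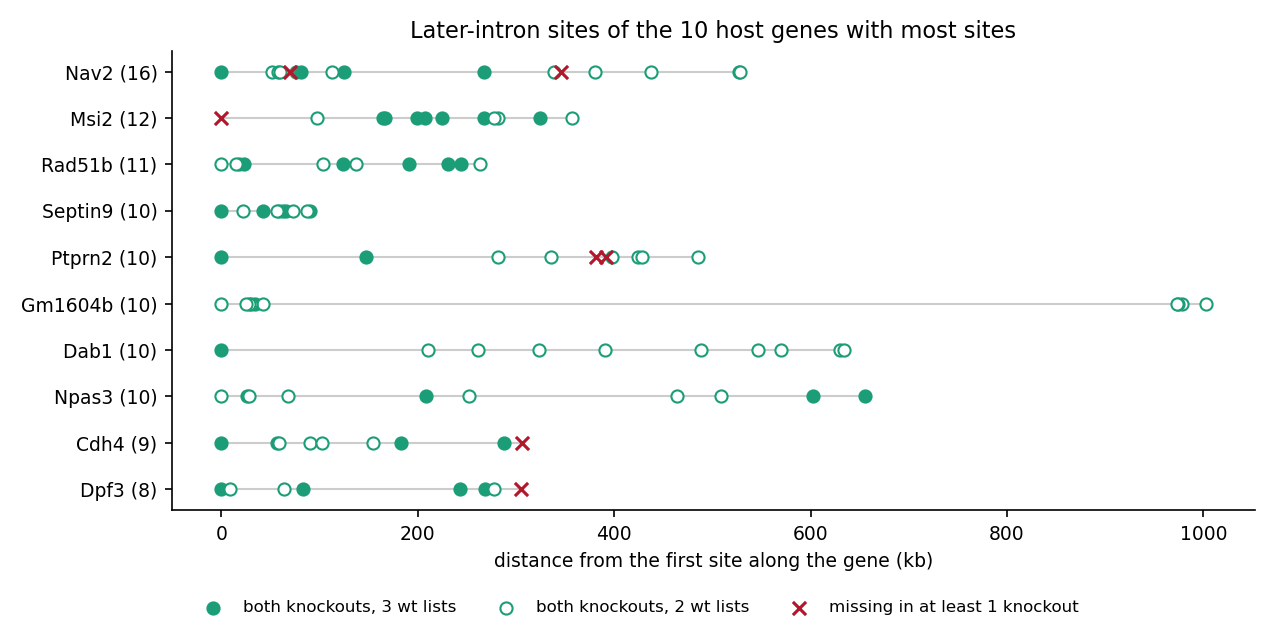
Later-intron sites of the 10 host genes with most sites, placed by distance (kb) from the first site in the direction of transcription (for Gm1604b, annotated on both strands, in that of most of its sites). Filled circles are sites in both knockouts and all 3 wt lists, open circles are sites in both knockouts and 2 wt lists, and crosses are the 7 of 106 sites missing in at least 1 knockout.

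Long genes were hosts far more often than short ones. Of the protein-coding genes in the RefSeq gene table, 6.81% hosted a later-intron site (1492 of 21896). By the longest transcript that the peak tables list for a gene, the share was 1.95% up to 20 kb, 8.36% from 20 to 50 kb, 18.9% from 50 to 100 kb, 35.1% from 100 to 200 kb and 55.9% above 200 kb. The bins hold only the 11416 genes whose length the peak tables give, of which 1426, or 12.49%, were hosts. The longest listed transcript can be much shorter than the gene. For Msi2 it is 27.5 kb, although its sites run from 88206275 to 88564086 on chromosome 11. For Slit3 it is 0.717 kb, with sites in introns 5 and 9. The bins and the medians below share this limit. The median longest transcript of a list, over its genes with a listed length only, is given below beside its hosts. The part of length in any count was not tested. In all, 132 of 365 listed genes were hosts, or 84 with sites defined without wt replicate 2 and 77 without wt replicate 3.

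Of 17 listed E protein, Id and proneural genes, 2 (11.8%) were hosts, both of them E protein genes: Tcf4 with 8 sites, all in both knockouts, and Tcf12 with 3, of which each knockout held 2. The median longest transcript in that list was 2.62 kb. The strongest Tcf12 site, at chr9:71745066-71745658 in intron 8 of 20 with 9.69-fold enrichment, was 824 bp wide in E12KO and 938 bp in E47KO, against 492, 671 and 593 bp in the wt replicates. Both knockout widths exceed the wt widths there, as the knockout medians above do. The Tcf12 site missing in both knockouts was also absent from wt replicate 1.

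Nuclear factor I and Sox genes, which act in glial and neuronal differentiation, were hosts in 5 of 15 cases (median longest transcript 7.0 kb). Nfia had 7 sites (7 in E12KO, 6 in E47KO), Sox6 had 6 in both knockouts, and Nfix had 3 (2 in E12KO, 3 in E47KO). The strongest Nfix site, at chr8:87236232-87236834 in its last intron with 18.2-fold enrichment, was nearest to Lyl1, another bHLH gene, as were the other Nfix sites. In the list of neuronal transcription factors, in which Auts2 was also placed, 10 of 25 genes were hosts (133 kb). Auts2 had 8 sites and Zbtb20 had 6. E12KO held 7 of the Auts2 sites and 5 of the Zbtb20 sites, and E47KO held 7 and 6.

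Corepressors and chromatin regulators were hosts in 9 of 25 cases (88.1 kb). Tle4, a Groucho-type corepressor gene of the Notch and Wnt pathways, held 4 sites, all in both knockouts. Chd7, a chromatin remodeller gene of neural crest and stem cells, held a 37.7-fold site at chr4:8726371-8727079 that was 987 bp wide in E12KO and 935 bp in E47KO, against 859, 820 and 709 bp in the wt replicates, so both knockout widths are the larger, as in the medians over all sites. Jarid2, a component of Polycomb complexes, held 2 sites up to 24.7-fold.

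Signalling genes were hosts in 23.1% to 35.7% of cases by pathway. In the Notch pathway 6 of 26 genes hosted a site (17.6 kb), and all 6 hosts had their sites in both knockouts. The ligand gene Dll1 had the strongest, 22.8-fold at chr17:15508749-15509298 in intron 4 of 10. Its peak was 677 bp wide in E12KO and 665 bp in E47KO, against 509, 331 and 550 bp in the wt replicates. Both knockout widths exceed the wt widths, as do the knockout medians over all later-intron sites. The receptor gene Notch1 had 3 sites up to 7.99-fold, Notch2 had 1 with 16.8-fold enrichment, the ligand gene Jag1 had 1 with 6.81-fold and the coactivator gene Maml2 had 1 with 9.52-fold.

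In the Sonic hedgehog pathway 5 of 14 genes were hosts (57.2 kb). The receptor gene Ptch1 had 4 sites within intron 2, up to 15.6-fold, all in both knockouts, although 2 of the 4 fall under a single 1436 bp peak in E47KO and a single 1421 bp peak in wt replicate 2. The effector gene Gli2 had 4, of which E12KO held 4 and E47KO 3. Of 20 Wnt pathway genes 7 were hosts (79.2 kb), led by the nuclear effector gene Tcf7l1 with 4 sites (4 in E12KO, 3 in E47KO) and the inhibitor gene Nkd1 with an 11.7-fold site. FGF, EGF and ERK signalling had 7 of 20 (58.3 kb), among them the receptor genes Erbb4, Fgfr1 and Fgfr2 with 2 sites each. E12KO held all of these, and E47KO held both sites of Fgfr1 and Fgfr2 and 1 of the Erbb4 sites. The BMP and TGF-β list had 6 of 20 (68.7 kb), with 13.5-fold enrichment in the receptor gene Tgfbr2 and 16.8-fold in the signal transducer gene Smad3.

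Among the lists, those of genes for the shape and contacts of neurons had the largest shares of hosts, and these are also long genes. The lists were chosen with earlier results of these data known, so their order is not independent evidence. Axon guidance genes were hosts in 19 of 28 cases (median longest transcript 190 kb), neuronal adhesion genes in 21 of 31 (726 kb) and cytoskeletal and migration genes in 18 of 24 (297 kb), beside a median of 23.4 kb over all listed protein-coding genes. In axon guidance the semaphorin receptor gene Plxna4 had 7 sites, of which E12KO and E47KO each held 6. Plxna2 had 6, all in both knockouts, and the ligand gene Sema3a had 6, of which each knockout held 5. Ephb2, an ephrin receptor gene, had 5 up to 22.6-fold, and the ligand gene Slit1 had 4, each in all 5 lists.

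Among adhesion genes, Cdh4 led, and the presynaptic neurexin gene Nrxn3 had 5 sites, all in both knockouts and 4 of them in wt replicate 1. In the cytoskeleton list, Ank2, an ankyrin gene, had 7 sites up to 34.6-fold, and Myo10, a filopodial myosin gene, had 7 up to 15.7-fold, all in both knockouts. Glutamate and GABA receptor and ion channel genes were hosts in 11 of 22 cases (439 kb), with 3 sites each in the calcium channel gene Cacna1a and the receptor genes Grin2a and Grin2b, all in both knockouts. The site in Gria1, a further glutamate receptor gene, was in E12KO and not in E47KO.

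The cell cycle, lymphoid and muscle lists had shares of hosts a little above the 6.81% of all protein-coding genes, on 2 hosts each, and no housekeeping gene was a host. In the cell cycle list 2 of 24 genes (8.33%) were hosts (median longest transcript 8.61 kb), with 3 sites in the kinase gene Cdk6 and 2 in the cyclin gene Ccnd2, all in both knockouts. Of 20 genes known as E2A targets in lymphoid cells, 2 (10.0%) were hosts, the B cell factor genes Bach2 with 4 sites and Ebf1 with 3, all in both knockouts. The median length in that list was 81.8 kb, over only the 9 genes with a listed length. The skeletal muscle list had 2 of 16 (11.3 kb) and the housekeeping list 0 of 18 (6.64 kb).

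Each library's own list also held later-intron peaks beyond the consensus. They numbered 5282 in E12KO (20.9% of its peaks) and 4854 in E47KO (21.9%), against 24.5% ± 2.88 of the peaks in the wt lists (SD, n = 3). The wt value includes 27.7% in replicate 1, whose table numbers introns in genomic order: on minus-strand genes the number was reversed at all 874 peaks that could be compared with replicate 3, while all 951 on the plus strand had the same number. Renumbered, later introns made up 65.1% of its intron peaks in place of 78.6%, beside 64.1% in E12KO, 63.8% in E47KO, 65.1% in wt replicate 2 and 63.8% in wt replicate 3. Of the later-intron peaks of E12KO, 49.1% overlapped a consensus site and 845 (16.0%) overlapped no wt peak at all, beside 18.3% of all E12KO peaks and 15.3% of its first-intron peaks. Of those of E47KO, 52.8% overlapped a consensus site and 660 (13.6%) overlapped no wt peak, beside 14.6% of all E47KO peaks and 14.0% of its first-intron peaks. In both knockouts the later-intron share without a wt peak was thus close to the share over all peaks.

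Later-intron peaks were about as wide as first-intron peaks. Median widths in later and first introns were 538 and 558 bp in E12KO, 493 and 504 bp in E47KO, 425 and 433 bp in wt replicate 1, 408 and 405 bp in wt replicate 2 and 490 and 503 bp in wt replicate 3. The mean difference over the 5 libraries was -9.8 bp ± 8.41 (SD), negative in 4 of 5, with p = 0.125 (also with wt replicate 1 renumbered) by an exact two-sided sign-flip permutation test whose smallest possible p is 0.0625. In each wt list, a smaller share of later-intron than of first-intron peaks was found in E12KO. The mean difference was -1.47 points (3 of 3 lists negative, exact permutation p = 0.25, the smallest 3 lists allow). In E47KO the mean difference was -1.12 points (2 of 3 lists negative, exact permutation p = 0.5). With wt replicate 1 renumbered, a choice made after seeing the data, it was -1.80 points in E12KO and -1.62 points in E47KO, negative in 3 of 3 lists for each (exact permutation p = 0.25 for both). With these numbers of libraries, neither test could reach 0.05.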

How the data were processed

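E2A ChIP-seq peak lists of 5 libraries were analysed. Tools named, per the submitters' processing notes, are MACS2 2.1.0, BWA 0.7.13 and Picard 1.119, on mm9; their settings are unknown. For every library the authors deposited a peak list, annotated with feature, nearest gene and distance to its start. Only the wt replicate 1 table holds scores: −log10 p and −log10 q, a fold enrichment (ratio over background) and pileup signal (coverage), as deposited by the authors, used only to describe sites within that list. Its lowest −log10 q was 2.07; thresholds of the other lists are unknown, as is read depth.

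Computed here: overlaps of at least 1 bp, 95% Wilson intervals, Newcombe intervals of differences and exact sign-flip permutation tests over libraries (Python 3.11.15, pandas 2.3.3, SciPy 1.17.1, statsmodels 0.14.6), tested on simulated data. The host is the gene in the annotation text. Gene names came from RefSeq (GRCm38.p6, names and class only): 1523 of 1530 hosts matched. Lists of 365 genes were read without a set test. The members and lists were chosen with earlier results of these data known. Named are the 10 hosts with most sites; the 10 strongest sites (by −log10 q) in all 5 lists and the 10 strongest with another nearest gene; up to 4 missing per knockout pattern; the 5 farthest; and 3 hosts per list. A few others, including miRNA genes, were chosen after their values were seen. Some sites that the rule names are not reported here. Alternatives covered the overlap, each wt list, a score minimum and the intron definition.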

Additional observations from a re-analysis of the deposited data

How the results depend on the processing

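Shares depended mainly on which wt lists defined a site. Leaving out each wt list in turn gave 1068 (without wt replicate 3), 1246 (without 2) and 2508 (without 1) sites, with 95.6% to 99.3% of them in E12KO, 93.5% to 98.3% in E47KO, 91.7% to 98.0% in both, and 5 to 32 missing in both. Requiring all 3 wt lists left 997 sites, with 99.5%, 98.8% and 98.5% in E12KO, E47KO and both, and 2 missing in both. A −log10 q of at least 5 in wt replicate 1 left 1203 sites, of which 29 were missing in both. List hosts numbered 77 to 128 with a wt list left out, 75 in all 3 lists and 83 at that score.

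Counting hosts without a gene as another gene, chosen after seeing the data, gave 72.1% with the host nearest. A 50% overlap, dropping last introns, or dropping sites with a first-intron peak elsewhere moved no result beyond its interval. No paired analysis was possible because each knockout has 1 library without a replicate number. Unknown depth and thresholds limit every absence.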

Other observations

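Sites on chromosome 5, a group chosen after its values were seen, were missing more often than others. Of 179 later-intron sites there, E12KO held 90.5% (95% Wilson interval 85.3% to 94.0%) and E47KO 89.9% (84.7% to 93.5%), against 96.8% and 94.4% of the 2578 later-intron sites on other chromosomes. They made up 10 of the 56 sites missing in both knockouts. The other consensus peaks of chromosome 5 were at 95.5% in E12KO and 91.2% in E47KO, against 96.9% and 93.6% on other chromosomes. Of the 179 sites, 87.7% were in wt replicate 2, against 91.2% of later-intron sites on other chromosomes. Since the chromosome was picked from all of them, no test is given.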
